A study of Mus musculus with 8 samples.

Results

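Neutrophils, short-lived white blood cells that leave the blood for injured tissue, made up 479 of the 54617 droplets kept from the cortical injury site and its surroundings (0.877%). A droplet was kept when it held at least 1000 unique molecular identifiers (UMIs, each standing for 1 captured transcript) with less than 20% of them mitochondrial. It was counted as a neutrophil when S100a8 and S100a9 together reached at least 20 UMIs per 10000 (cp10k), when at least 2 of Csf3r, Cxcr2, Retnlg, Mmp9 and Il1r2 were detected, and when transcripts of microglia (P2ry12 and Tmem119, under 1 cp10k), endothelial cells (Cldn5 and Flt1, under 2 cp10k) and fibroblasts (Col1a1 and Col1a2, under 10 cp10k) were low. All 8 mice were female, of the strain labelled Bl/J6, and received a photothrombotic ischemic injury (PT) of the right sensorimotor cortex. The lesion was taken 6 days later together with spared cortex around it, with no enrichment for any cell type. Cells of spared cortex are therefore among the kept droplets. In 4 of the mice a subcutaneous pump, placed 2 days before PT, delivered 2.4 U of ancrod per day, a snake venom enzyme that depletes fibrinogen from the circulation (fibrinogen-depleted mice), and in the other 4 the pump held saline (control mice). Replicates 1 to 3 of each group formed injury and sequencing batch 1 and replicate 4 of each group formed batch 2, the mice were adult, blood was washed out by perfusion, and the cell suspension passed red cell lysis and myelin removal beads. Fibrinogen is a plasma protein and was not measured in these files, and uninjured cortex and blood were not analysed here, so no value compares these neutrophils with circulating ones.

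Neutrophils are made in the bone marrow, where they fill successive kinds of granules as they mature: azurophil granules first (myeloperoxidase, neutrophil elastase), then specific granules (lactoferrin, cathelicidin), then gelatinase granules. Mature cells retain the granule proteins but stop making most of the early granule transcripts, and they follow CXC chemokines through Cxcr2, formyl peptides through Fpr1 and the complement fragment C5a through C5ar1 into tissue. There they release reactive oxygen, proteases, interleukin-1 and chromatin traps. Fibrinogen is itself a ligand of the neutrophil integrin Mac-1, a pair of Itgam and Itgb2.

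The members were chosen by the measured levels of these 13 genes, so the values of those genes describe the choice of cells and are not findings. S100a8 and S100a9, the calprotectin subunits, lie close together on chromosome 3 (GRCm39, chr3:90567118-90578128 on the plus strand and chr3:90599931-90603071 on the minus strand), and 747 droplets reached the limit for their sum. Of these, 715 had at least 2 of the 5 further genes, 528 remained under the microglial limit, 480 also under the endothelial limit, and 479 under the fibroblast limit as well. Near the limit for S100a8 and S100a9, 12 members were between 20 and 40 cp10k and 20 droplets that met every other condition lay between 10 and 20 cp10k. The 12 had a median of 27.8 cp10k and the 20 a median of 14.4 cp10k. All 5 genes were detected in 165 members and exactly 2, the limit, in 41, and 17 droplets failed only for having 1 of the 5. The microglial limit alone kept out 172 droplets, 37 of them between 1 and 2 cp10k, and the endothelial limit alone 48, 27 of them between 2 and 4 cp10k. In turn 6 and 12 members lay in the upper part of the allowed range, over 0.5 and 1 cp10k. These 2 counts depended on depth. The median member had 4863 UMIs, where a single UMI of a microglial gene already exceeds 1 cp10k, so only deeper members could lie just under that limit.

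The markers that name these cells were used by the rule, so their levels are a description and do not support the label. S100a8 was at 17876, 44406, 57059 and 81948 CPM in saline 1 to 4 and 72436, 33168, 33755 and 68757 CPM in ancrod 1 to 4, where CPM stands for counts per 1000000 UMIs of the UMIs summed over the neutrophils of one mouse. Csf3r, the receptor for granulocyte colony-stimulating factor, was at 1663, 1324, 1361 and 1382 CPM in saline 1 to 4 and 984, 2115, 1477 and 2628 CPM in ancrod 1 to 4. Saline 1, which rested on only 12 cells, was the lowest mouse for S100a8 and the third highest for Csf3r. Ly6g, the surface antigen by which mouse neutrophils are usually stained and no part of the rule, was detected in 98 of the 479 members from 7 mice, at 189 ± 125 CPM (mean ± SD, n = 8 mice), and had 0 UMIs in the monocyte and macrophage gates described below. Several markers of other blood cells were absent: Ppbp of platelets, Xcr1 of dendritic cells, Cpa3 and Fcer1a of mast cells and basophils, Prg2 and Epx of eosinophils and Ms4a1 of B cells had 0 UMIs in every mouse. Other markers of such cells were present. Pf4 of platelets was at 4.03 CPM or more in the neutrophils of 4 mice. Nkg7 of NK cells was at 12.6 CPM or more in 3 mice, and Cd3d of T cells and Flt3 and Clec9a of dendritic cells in 1 each. Both values are limits and not levels of these genes. They are the minimum of the filter on low counts in the comparisons with macrophages and monocytes described below.

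The libraries held 97861434 to 122758649 UMIs in the control mice and 126682918 to 142139441 in the fibrinogen-depleted mice, over all droplets, so the 2 groups did not overlap in depth. The neutrophils had a median of 4863 UMIs (1106 to 60453), below the median of all kept droplets in each of the 8 mice, with 18 members over 20000 UMIs. Transcripts of neighbouring cells were present in some members: at least 1 UMI of a C1q gene, which macrophages and microglia make, was found in 283 (59.1%), at least 10 cp10k of C1q in 18, and at least 5 cp10k of a set of glial genes, Slc1a2, Slc1a3 and Aldoc among them, in 49. Of those 49, 28 came from ancrod 2 and 4 from the 12 cells of saline 1, where the astrocyte gene Slc1a2 reached 5560.4 CPM against 5.53 to 722 CPM in the other 7 mice. The summed level of 6 macrophage markers was 943 to 6010.4 CPM in control and 952 to 5258 CPM in fibrinogen-depleted mice. An estimate that took every glial UMI for RNA free in the suspension, capped at 100%, put free RNA at 100% of the UMIs in saline 1, 42.8% in ancrod 3, 29.1% in ancrod 1, 27.9% in ancrod 2 and 1.38 to 8.21% in the other 4 mice. S100a8 and S100a9 were at a median of 309.9 cp10k in the members of saline 1 against 0.303 cp10k in its free RNA. The rule chose the members by these 2 genes, so this difference was fixed in advance and does not bear on the estimate. Without saline 1, 2398 of 7699 and 4040 of 9883 genes were called in the comparisons with monocytes and macrophages described below. With that estimate subtracted, 0 of 3358 genes were called between fibrinogen-depleted and control mice (edgeR, 56 at an unadjusted p under 0.05), and the comparisons with other myeloid cells were repeated only without the members that held such transcripts. No doublet caller was run, and of the 479 cell barcodes 6 also occurred among the kept droplets of another library and 0 among its neutrophils.

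Neutrophils were most frequent in 2 of the 4 fibrinogen-depleted mice, but the groups did not differ beyond the spread between mice. The libraries held 12, 44, 49 and 31 neutrophil droplets in saline 1 to 4 and 134, 143, 50 and 16 in ancrod 1 to 4. As shares of kept droplets these were 0.182, 0.671, 0.652 and 0.481% in saline 1 to 4 and 2.01, 1.92, 0.649 and 0.281% in ancrod 1 to 4. Ancrod 1 and ancrod 2 stood above every control mouse, whereas ancrod 3 lay among the controls and ancrod 4 below 3 of them. Counting error alone gave a 95% Wilson interval of 0.104 to 0.319% for saline 1 and of 1.70 to 2.37% for ancrod 1, and the intervals of ancrod 1 and ancrod 4 (0.173 to 0.457%) were far apart within one group. The mean share of the control group was 0.497 ± 0.226% and that of the fibrinogen-depleted group 1.21 ± 0.878% (SD over 4 mice each), a difference of 0.717 percentage points and a ratio of 2.44 (two-sided exact permutation test over 70 arrangements, p = 0.257, smallest possible p 0.0286). The difference was 0.452 percentage points without ancrod 1 and 0.344 without the members that held at least 2 cp10k of C1q (exact permutation test, p = 0.514, smallest possible p 0.0571, and p = 0.286).

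With other denominators the groups did not differ beyond the spread between mice either. As a share of the droplets with a UMI of the leukocyte gene Ptprc, neutrophils were at 0.955 ± 0.410% in control and 2.38 ± 1.73% in fibrinogen-depleted mice (exact permutation test, p = 0.2). As a share of neutrophils, monocytes and Ms4a7 macrophages together they were at 8.28 ± 2.40% and 14.1 ± 9.34% (exact permutation test, p = 0.343). Within batch 1 the fibrinogen-depleted mice were higher by 1.02 percentage points (3 mice against 3, exact permutation test, p = 0.3, smallest possible p 0.1), and within batch 2 the direction turned, with 0.281% in ancrod 4 against 0.481% in saline 4 (1 mouse against 1, no test). Because ancrod 1 and ancrod 2 supplied 57.8% of all members, levels below are given mouse by mouse, and where cells were pooled over mice the text says so. A share of droplets cannot tell more neutrophils in the lesion from fewer other cells in the suspension, and with all libraries thinned to equal totals the difference was 0.847 percentage points (exact permutation test, p = 0.2).

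**Figure D1:**
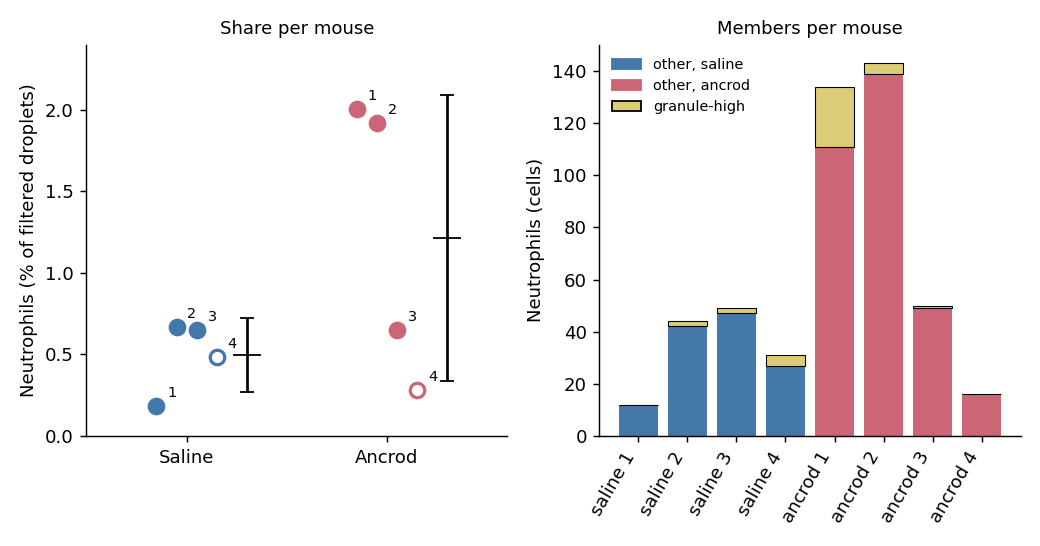
Left, neutrophils as a percentage of kept droplets, 1 point per mouse numbered by replicate (filled points for batch 1 and open points for batch 2), with bars for the group mean ± SD, where ancrod 1 and ancrod 2 lie at 2.01% and 1.92% and the other 6 mice at 0.671% or less. Right, the number of neutrophils per mouse, with the granule-high members described in the text in yellow, 23 of 36 of them in ancrod 1.

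Azurophil granule genes were detected in few cells. Elane, neutrophil elastase, was at 0, 0, 0 and 1118 CPM in saline 1 to 4 and 1997, 94.1, 3.93 and 0 CPM in ancrod 1 to 4. Mpo, the hydrogen peroxide-using enzyme myeloperoxidase, was at 0, 0, 0 and 68.3 CPM in saline 1 to 4 and 457, 18.8, 0 and 13.4 CPM in ancrod 1 to 4. Both genes were thus high in saline 4 and ancrod 1, low in ancrod 2, and at or close to 0 in the other 5 mice, and Elane was detected in only 10 and Mpo in 8 of the 479 neutrophils. Prtn3 (proteinase 3), Ctsg (cathepsin G) and Ms4a3, a gene of granulocyte and monocyte precursors, followed the same mice, reaching 1539, 579.9 and 372 CPM in ancrod 1. Elane and Prtn3 lie close together on chromosome 10 (GRCm39, chr10:79722081-79724051 and chr10:79710310-79719008, both on the plus strand).

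Specific granule genes were uneven among the same mice. Camp, the precursor of the antimicrobial peptide cathelicidin, was at 0, 1592, 716 and 6987 CPM in saline 1 to 4 and 12905, 2008, 232 and 523 CPM in ancrod 1 to 4. Ltf, the iron-binding protein lactoferrin, was at 52.0, 762, 642 and 1655 CPM in saline 1 to 4 and 2607, 515, 129.6 and 26.8 CPM in ancrod 1 to 4. For Camp and Ltf ancrod 1 and saline 4 were the highest mice and the groups overlapped. Ngp (neutrophilic granule protein, 0 to 10121 CPM) and Chil3 (chitinase-like 3, 13.4 to 2587 CPM) were also highest in ancrod 1 and next highest in saline 4. Lcn2, the siderophore-binding lipocalin 2, was less uneven, at 225, 2733, 2437 and 3408 CPM in saline 1 to 4 and 5798, 1480.1, 1662 and 2293 CPM in ancrod 1 to 4. Camp, Ngp and Ltf lie on chromosome 9 (GRCm39, chr9:109676442-109678685, chr9:110248815-110252086 and chr9:110848339-110871835), and none of the stretches of 50 bases in the transcripts of Camp, Ngp and Lcn2 occurs in another annotated gene.

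The high values came from 36 neutrophils rich in early granule transcripts, here called granule-high: members with at least 100 cp10k of Ltf, Camp and Ngp together or at least 20 cp10k of Mpo, Elane, Prtn3 and Ctsg together. These limits were set after the values had been seen, so the comparison of the 36 with the other 443 is a description without a test. Saline 1 to 4 held 0, 2, 2 and 4 of them and ancrod 1 to 4 held 23, 4, 1 and 0. In ancrod 1 they were 17.2% of the neutrophils but 44.9% of their summed UMIs, and in saline 4 they gave 30.3% of the UMIs, and their median depth was 16048 UMIs against 4714 in the others. The limit cut a range with few cells around it: 4 members lay between 50 and 100 cp10k of the 3 specific granule genes, 4 between 100 and 200 cp10k, 364 had no UMI of any of the 3, and 2 of the 36 were included for azurophil genes alone.

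Pooled over mice, the 36 cells held Camp at 25664 CPM against 51.2 CPM in the 443, and Elane at 3629 CPM against 0.832 CPM, which the limits themselves set. Genes outside the limits differed as well, here also in cells pooled over mice. At least 2 of the cell cycle genes Mki67, Top2a, Cenpf, Cdk1 and Ccnb2 were detected in 14 of the 36, 12 of these in ancrod 1, and in 4 of the 443. Il1b was detected in 12 of the 36 and 413 of the 443, although the 36 were deeper, with medians over cells of 0 and 28.7 cp10k. Cxcl2 was detected in 6 and 287 cells, and Ccrl2, a receptor that binds the chemoattractant chemerin, in 3 and 273. Csf3r and Cxcr2, both used by the rule, had medians of 2.22 and 1.14 cp10k in the 36 and of 17.1 and 5.96 cp10k in the 443. Mmp8, of the list of gelatinase granule and secreted genes below, was detected in 20 and 150 cells, with medians of 6.65 and 0 cp10k and pooled levels of 737 and 518 CPM. That difference was not shared by the mice: in ancrod 1 Mmp8 was at 316 CPM in its 23 granule-high members and 669 CPM in its other 111, and in the other 7 mice at 1787 and 463 CPM. For Camp the order was the same within ancrod 1 (28745 against 9.35 CPM) and within the other mice pooled (17976 against 66.4 CPM). Il1b was detected in 6 of 23 and 108 of 111 members of ancrod 1, and in 6 of 13 and 305 of 332 of the others. Mmp9, of the same list as Mmp8 and used by the rule, was at pooled levels of 637 and 761 CPM, while its medians over cells had the opposite order, 9.82 and 5.96 cp10k. By mouse Mmp9 was split as well, at 402 against 819.7 CPM in ancrod 1 and 1223 against 739 CPM in the other 7 mice. Without the 36 cells Ctsg and Ms4a3 had 0 UMIs in all 8 mice, and Camp was at a median of 13.1 CPM over mice (0 to 523 CPM).

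**Figure D2:**
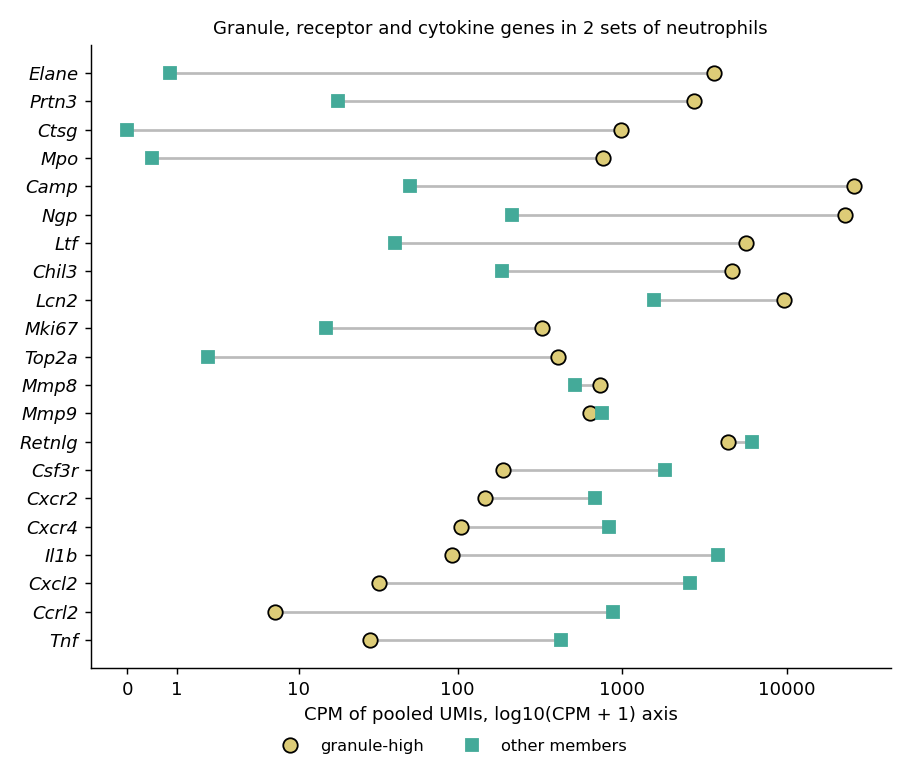
Pooled level of each gene in the 36 granule-high members (yellow circles) and the other 443 neutrophils (green squares), in CPM on a log10(CPM + 1) axis. Granule and cell cycle genes at the top were higher in the 36 (Camp, 25664 against 51.2 CPM) and chemokine and cytokine genes at the bottom lower (Cxcl2, 32.8 against 2587 CPM).

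Gelatinase granule and secreted genes were spread over more of the neutrophils. Mmp8, neutrophil collagenase, was at 208, 424, 993 and 862 CPM in saline 1 to 4 and 510.3, 383, 566 and 1139.7 CPM in ancrod 1 to 4. Hp (haptoglobin) was at 1113 ± 365 CPM, Slpi, an inhibitor of elastase, at 839 ± 421 CPM and Pglyrp1, a peptidoglycan-binding protein, at 808 ± 347 CPM (mean ± SD, n = 8 mice). No mouse lacked any of these 4 genes, and control and fibrinogen-depleted mice overlapped for each of them.

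Single neutrophils differed widely in these transcripts. After each neutrophil had been thinned to 1000 UMIs, the 7 specific granule genes together gave a median of 1.00 UMI per cell (0 to 152), with 213 cells (44.5%) at 0. The cytokine and chemokine genes gave a median of 7.00 (0 to 194), with 40 cells at 0. Within one mouse the specific granule sum reached a highest value of 20 to 152 UMIs in 7 mice but only 2 in the 12 cells of saline 1, and the highest cytokine and chemokine sum was 33 to 194 UMIs over the 8 mice. Over the cells of each of the 6 mice with more members than saline 1 and ancrod 4, the median Spearman correlation was 0.50 (0.37 to 0.56 over mice) between specific and gelatinase granule genes, -0.22 (-0.40 to 0.13) between specific granule genes and cytokines, and -0.24 (-0.30 to -0.10) between specific granule genes and genes reported in tissue neutrophils. The specific granule sum also went with a cell's UMI count before thinning, at 0.36 (0.17 to 0.63), so these correlations, of which only the first was more than weak, describe cells of one library and carry no test. The gelatinase granule list holds Mmp9, which the rule used. With the 7 neutrophil genes of the rule the specific granule sum correlated at 0.65 (0.49 to 0.78) and the gelatinase granule sum at 0.63 (0.39 to 0.85). The first correlation is thus drawn in part from values that chose the cells.

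**Figure D3:**
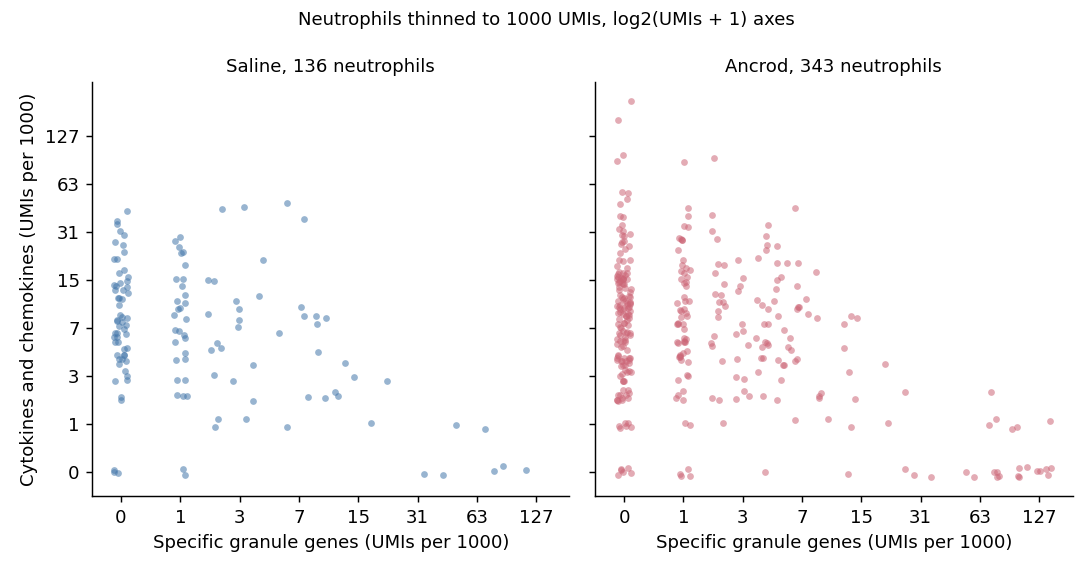
Each point is 1 neutrophil thinned to 1000 UMIs (136 cells of control mice on the left and 343 of fibrinogen-depleted mice on the right), with the summed UMIs of 7 specific granule genes on the horizontal and of the cytokine and chemokine genes on the vertical axis, both as log2(UMIs + 1) with a small jitter. Few cells lie high on both axes, and 213 cells lie at 0 on the horizontal axis.

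The neutrophils were set beside 2 other myeloid populations of the same mice, to show where their transcripts differ from those of other myeloid cells of the tissue taken. The monocyte gate (1039 droplets) required at least 3 of Ly6c2, Ccr2, Chil3, Plac8 and Ms4a4c and under 5 cp10k of C1q, and it also held dendritic and lymphoid genes, with H2-Aa, Flt3, Cd3e and Klrd1 above the neutrophil level. The Ms4a7 macrophage gate (2331 droplets) required Ms4a7, at least 10 cp10k of Lyz2 and at least 5 cp10k of C1q, and both gates required under 20 cp10k of S100a8 and S100a9. Counts were summed per mouse and gate and compared within mice by the quasi-likelihood test of edgeR, with p-values adjusted over all genes after Benjamini and Hochberg, and a gene was called at an adjusted p under 0.05 and at least 2-fold. Against the monocyte gate 2153 of 7201 genes were called (29.9%), 901 higher in neutrophils (12.5%) and 1252 lower (17.4%), and against the macrophages 3529 of 9349 (37.7%), 1389 higher (14.9%) and 2140 lower (22.9%). With DESeq2's size factors the second split was 1107 higher and 2686 lower, and the median log2 fold change of all genes was -0.22 in place of -0.08 against monocytes and -0.40 in place of -0.19 against macrophages. With edgeR and saline 1 left out, 1201 of 9883 genes were higher and 2839 lower than in macrophages, with a median of -0.40. The shares of all genes against macrophages thus rested in part on that mouse, which had 12 neutrophils. Because the gates chose cells by type, genes that go with the gate genes were bound to differ, and a list's calls describe the populations. Genes used by either of the 2 gates compared were left out of that comparison's calls, and log2 fold changes below are neutrophils over the other gate with their standard error. Some genes passed the filter on low counts only with the libraries of the gate where they were high, since those of the other gate did not reach the minimum in all 8 mice, and this fixed their direction at least in part. For such genes the level and the log2 fold change are given as a description with no p. The counts of each list below are read against the shares of all genes, 12.5% higher and 17.4% lower against monocytes and 14.9% and 22.9% against macrophages.

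Genes known from neutrophils but outside the rule were far higher in neutrophils. A gene nearly absent from the other gates passes the filter on low counts through the neutrophil libraries alone, so the direction of those tested was partly fixed and their counts and medians are a description. This held for 8 of those called against monocytes and 8 of those called against macrophages. Of the 14 neutrophil genes 13 passed the filter on low counts against monocytes and 12 were higher, with a median log2 fold change of 7.25, and 13 of 13 were higher than in macrophages, with a median of 6.21. Stfa2l1, a cysteine protease inhibitor of the stefin family, had 1754 UMIs in neutrophils and 0 in both other gates, which, against a floor of 3 UMIs over the gate, made it at least 3409-fold higher than in the monocyte gate and at least 10759-fold higher than in macrophages. Its level was 537, 769.7, 716 and 1309.6 CPM in saline 1 to 4 and 414, 475, 369 and 523 CPM in ancrod 1 to 4. Cstdc4, a related gene also on chromosome 16 (GRCm39, chr16:35977176-35982332 and chr16:36004483-36008484), had 1472 UMIs in neutrophils and 1 UMI in each of the other gates. Of the stretches of 50 bases in these transcripts 11.9% and 11.0% occur in another gene, most often Stfa2 and Atg4c, so part of their counts may belong to other genes. Asprv1, a retroviral-like protease, had 1081 UMIs in neutrophils, 3 in the monocyte gate and 1 in the macrophages.

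Better-known neutrophil genes followed. Hdc, the histamine-making histidine decarboxylase, was at 779, 659.7, 1084 and 909 CPM in saline 1 to 4 and 663, 614, 629 and 1139.7 CPM in ancrod 1 to 4, and its log2 fold change was 7.42 ± 0.20 against monocytes and 8.83 ± 0.28 against macrophages. Every mouse had at least 614 CPM of Hdc, against means of 4.96 and 1.56 CPM in the other gates. G0s2, an inhibitor of fat breakdown, was at 1592 ± 614 CPM and Acod1, which makes itaconate, at 855 ± 463 CPM (mean ± SD, n = 8 mice), with log2 fold changes of 7.89 ± 0.47 and 8.21 ± 0.36 against monocytes. Trem1, an amplifier of inflammatory signals, was at 271 to 549.7 CPM over the 8 mice and was higher than in monocytes (3.63 ± 0.19, adjusted p = 3.35e-10) and macrophages (4.94 ± 0.19, adjusted p = 3.65e-13). Alox5ap, which presents arachidonic acid for leukotriene synthesis, was called against macrophages (1.72 ± 0.18, adjusted p = 1.51e-07) but its 0.83 ± 0.15 against monocytes was under 2-fold.

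Granule genes nearly absent from the other gates, such as Ltf with 4262 UMIs in neutrophils and 12 in the monocyte gate, passed the filter through the neutrophil libraries, which fixed their direction. Of 7 specific granule genes 3 passed in each comparison, Ltf and Lcn2 in both, Cd177 against monocytes and Chil3 against macrophages, and each was higher, while Camp and Ngp reached the minimum count in too few libraries. The call of Chil3 (1.53 ± 0.43) rested on the granule-high members, without which it was -0.19, and the log2 fold changes of Ltf against monocytes and macrophages were 10.46 and 10.11 with them and 6.12 and 6.24 without them. Lcn2, at 10.9 ± 9.04 CPM in monocytes and 1.71 ± 1.29 CPM in macrophages, had log2 fold changes of 8.08 ± 0.40 and 10.42 ± 0.40, again with the direction fixed by the filter. Of 7 gelatinase granule and secreted genes 6 passed and 5 were higher in both comparisons, Mmp8 by 4.39 ± 0.29 and 3.72 ± 0.26 and Pglyrp1 by 5.58 ± 0.23 and 10.19 ± 0.25. The filter fixed the direction of 3 and 2 of these calls. The one not called, Adam8, a sheddase of adhesion molecules, was at 143 ± 42.7 CPM in neutrophils, 81.2 ± 40.5 CPM in monocytes and 98.6 ± 18.8 CPM in macrophages.

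Receptors that guide neutrophils into tissue were in part higher in neutrophils. Of 14 receptor genes outside the rule 7 of 13 tested were higher and 0 lower than in monocytes (Ltb4r1, Ptafr and Tnfrsf1a among them within 1.02 to 1.17 and not called under several alternatives), and 8 of 14 were higher and 1 lower (Ccr2, the monocyte chemokine receptor) than in macrophages. Fpr1, the formyl peptide receptor, was at 69.3, 195, 191 and 243 CPM in saline 1 to 4 and 183, 249, 232 and 322 CPM in ancrod 1 to 4. Saline 1 had the lowest Fpr1 and the 2 groups overlapped. The other gates held it at 3.08 ± 2.55 CPM and 3.06 ± 1.28 CPM, so the filter fixed its direction, as for 2 of the higher receptors against monocytes and 3 against macrophages, Fpr1 included. The direction of Ccr2 against macrophages was fixed in part in the same way. The log2 fold changes of Fpr1 were 6.23 ± 0.31 and 5.97 ± 0.21. C5ar1, the C5a receptor, was even among mice (435 to 712 CPM) and higher by 1.84 ± 0.22 and 1.77 ± 0.16. Ccr1, a receptor for CC chemokines such as Ccl3, was higher by 1.62 ± 0.22 and 3.57 ± 0.24. Cxcr4, the receptor for Cxcl12 that holds neutrophils in the marrow and is carried by aged ones, was at 727 ± 219.6 CPM in neutrophils, 472 ± 54.4 CPM in monocytes and 378 ± 73.3 CPM in macrophages, under 2-fold from either.

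The integrin that binds fibrinogen was present in the neutrophils of every mouse. Itgam, the alpha subunit of Mac-1, was at 259.8, 329.9, 288 and 316 CPM in saline 1 to 4 and 366, 352, 287 and 375 CPM in ancrod 1 to 4, and Itgb2, its beta subunit, at 156, 367, 346 and 358 CPM in saline 1 to 4 and 337, 325, 334 and 442 CPM in ancrod 1 to 4. The mice differed little apart from a low Itgb2 in saline 1, and neither gene was called between fibrinogen-depleted and control mice. Itgam was higher than in macrophages (1.09 ± 0.15, adjusted p = 7.18e-06), a value close to the 2-fold limit: it was 0.92 without saline 1 and 0.90 without the granule-high members, both no longer called. Against monocytes it was under 2-fold (0.81 ± 0.15). Over the 11 adhesion genes 3 were higher and 1 lower (Pecam1) than in monocytes, where 12.5% and 17.4% of all genes were. Pecam1 reached the minimum of the filter in 4 neutrophil and 8 monocyte libraries, which fixed its direction at least in part. Against macrophages 8 were higher and 0 lower, beside 14.9% and 22.9% of all genes, and the filter fixed the direction of 2 of the 8. Among the 8 was Itgal, the alpha subunit of LFA-1 (4.13 ± 0.20, adjusted p = 6.19e-12). Others of the 8 were less firm: Pecam1 (1.31 ± 0.49), at 13.5 ± 13.6 CPM in neutrophils, was no longer called in 6 of 20 alternatives and Itga4, an integrin subunit of VLA-4 (1.11 ± 0.21), in 4 of 22.

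Neutrophils carried much Il1b, Cxcl2, Tnf and Csf1. Il1b, interleukin-1 beta, was at 5145, 3608, 2525 and 4108 CPM in saline 1 to 4 and 2183, 3425, 3115 and 4854 CPM in ancrod 1 to 4, and after thinning it was detected in 75.4% of neutrophils against 0.336% of endothelial cells (cells pooled over mice, 66.7 to 87.1% of neutrophils by mouse, and unthinned 88.7%). No mouse was under 2183 CPM and the groups overlapped. Its log2 fold change was 2.08 ± 0.19 against monocytes (adjusted p = 2.5e-07) and 4.14 ± 0.22 against macrophages (adjusted p = 2.98e-11), the latter at 177 ± 50.9 CPM. Cxcl2, itself a ligand of Cxcr2, was at 866, 1315, 888 and 1625 CPM in saline 1 to 4 and 1159.8, 4449.7, 1229.7 and 2641 CPM in ancrod 1 to 4. Ancrod 2 stood highest, and the other mice of the 2 groups interleaved. Cxcl2 was higher than in monocytes (2.91 ± 0.27, adjusted p = 2.7e-07) and macrophages (1.94 ± 0.25, adjusted p = 2.8e-06).

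Tnf was at 86.6, 289, 252 and 277 CPM in saline 1 to 4 and 235, 616, 279 and 93.9 CPM in ancrod 1 to 4, with the highest value again in ancrod 2, and was higher than in monocytes (2.61 ± 0.22) and macrophages (1.32 ± 0.24). Csf1, the growth factor of macrophages and microglia, was at 139, 468, 271 and 239 CPM in saline 1 to 4 and 235, 688, 271 and 375 CPM in ancrod 1 to 4. It was 5.77 ± 0.34 against monocytes, where it was at 6.42 ± 5.84 CPM and only 1 library reached the minimum of the filter, and 1.63 ± 0.27 against macrophages (adjusted p = 4.54e-05). Of the genes called lower, Cxcl16 was -4.26 ± 0.48 and -5.01 ± 0.42, with 17 UMIs in all neutrophils, and Tgfb1 was -1.76 ± 0.18 and -1.29 ± 0.20, each in both comparisons. Il1a, the sister cytokine of Il1b (-1.35 ± 0.31), Osm, oncostatin M (-1.20 ± 0.28), and Ccl4, a CC chemokine (-1.69 ± 0.29), were lower than in macrophages and were not called against monocytes (Osm was -0.54 and no longer called with every cell thinned to 1000 UMIs). Ccl3, a related CC chemokine, was also called lower than in macrophages (-1.02 ± 0.23), a call lost in 7 of 22 alternatives, and higher than in monocytes (1.75 ± 0.34). In all, 7 of 16 tested cytokine and chemokine genes were higher and 2 lower than in monocytes (median 0.66), beside 12.5% and 17.4% of all genes, so the share lower was under that of all genes. Against macrophages 7 of 17 were higher and 6 lower (median 0.31), beside 14.9% and 22.9%. In both comparisons the higher genes included Ccrl2, which is a receptor, and its call against macrophages was lost in 2 of 22 alternatives. Against monocytes the filter fixed, at least in part, the direction of 2 of the 7 higher (Il1rn and Csf1) and 1 of the 2 lower genes (Cxcl16). Against macrophages it did so for 1 of the 6 lower genes, again Cxcl16.

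Of the 6 subunit genes of the NADPH oxidase, which makes superoxide, 4 were higher in neutrophils in each comparison and 0 lower. Among these were the cytosolic subunits Ncf1 and Ncf4 and the GTPase Rac2, of which Ncf4 (1.06 ± 0.18) lay at the 2-fold limit against monocytes and was not called with DESeq2 (0.94). Ncf1 was at 693, 627, 439.8 and 751 CPM in saline 1 to 4 and 557, 425, 605 and 831 CPM in ancrod 1 to 4, with log2 fold changes of 2.29 ± 0.14 (adjusted p = 2.99e-09) and 1.84 ± 0.16 (adjusted p = 1.71e-08). The membrane subunits Cybb and Cyba, at 413 ± 296 CPM and 1075 ± 264 CPM in neutrophils, were not called, and Cybb was highest in saline 4 and ancrod 1 (86.6 to 881 CPM over mice). Padi4, the enzyme that citrullinates histones when chromatin traps form, was at 34.6, 97.7, 147 and 196 CPM in saline 1 to 4 and 104, 41.7, 70.7 and 161 CPM in ancrod 1 to 4 and had log2 fold changes of 4.75 ± 0.37 against monocytes (4.03 ± 2.28 CPM) and 4.18 ± 0.29 against macrophages (5.42 ± 2.38 CPM), both directions fixed by the filter. Nlrp3, the inflammasome sensor, was higher in both (2.01 ± 0.20 and 2.06 ± 0.19), and Pycard, its adaptor, was lower in both (-1.34 ± 0.22 and -1.52 ± 0.24). Only 7 neutrophil libraries reached the minimum of the filter for Pycard, which fixed its direction in part. Gsdmd, the pore-forming gasdermin D, was at 26.0 ± 11.0 CPM and was not called.

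Some interferon-response genes differed from those of the other gates, most of them higher in neutrophils. Isg15 was at 0, 143, 102 and 85.3 CPM in saline 1 to 4 and 44.7, 72.6, 66.8 and 93.9 CPM in ancrod 1 to 4, and after thinning 7.52% of neutrophils held a UMI against 18.7% of endothelial cells, which can make it themselves and so set no background share. Rsad2 was detected in 2.92% against 8.82%. Ifitm1, a membrane protein that blocks virus entry, was at 641, 1108, 2202 and 2060.3 CPM in saline 1 to 4 and 1558, 1139, 1002 and 1850.3 CPM in ancrod 1 to 4. Its log2 fold change was 3.18 ± 0.38 against monocytes (adjusted p = 3.97e-06) and, with the direction fixed by the filter, 8.48 ± 0.35 against macrophages, where it was at 3.58 ± 1.95 CPM. Ifitm1 was thus higher than in both gates, whereas its relative Ifitm3 was lower than in monocytes (-1.34 ± 0.25). Cd274, the checkpoint ligand PD-L1, was higher in both comparisons (1.72 ± 0.20 and 2.37 ± 0.21) and was highest in ancrod 2 and ancrod 4, at 452 and 469 CPM against 112 to 195 CPM in the other 6 mice. Over the list 3 of 12 tested genes were higher and 2 lower than in monocytes, and 6 of 13 were higher and 1 lower than in macrophages. The shares lower are near or under the 17.4% and 22.9% of all genes, and those higher stand beside 12.5% and 14.9%. Against monocytes the filter fixed, at least in part, the direction of 1 of the 2 lower genes (Ifit2). Against macrophages it did so for 2 of the 6 higher genes (Ifitm1 and Isg20) and for the 1 lower gene (Mx1). Several of these calls were not firm: against monocytes Ifit2 (-1.59 ± 0.59) was lost in 7 of 21 alternatives and Oasl2 (1.01 ± 0.28) in 6 of 21, and against macrophages Mx1 (-1.75 ± 0.59), the lower gene, in 2 of 21 and Ifitm3 (1.10 ± 0.26) in 4 of 22.

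Of the genes reported in neutrophils that stay in tissue, more were called lower than higher in neutrophils. Siglecf, a sialic acid receptor best known on eosinophils, was at 243, 224, 77.4 and 38.4 CPM in saline 1 to 4 and 65.3, 72.6, 212 and 134 CPM in ancrod 1 to 4. It was highest in saline 1, saline 2 and ancrod 3, present in all 8 mice, and detected after thinning in 12.3% of neutrophils against 0.0168% of endothelial cells (3.23 to 26.0% of neutrophils by mouse). Its log2 fold changes were 5.87 ± 0.41 against monocytes (2.62 ± 2.02 CPM) and 6.62 ± 0.34 against macrophages (1.03 ± 0.656 CPM), with the direction fixed by the filter. The eosinophil granule genes Prg2 and Epx had 0 UMIs. Cd63, a membrane protein of lysosomes and granules, was higher than in monocytes (2.36 ± 0.25) and lower than in macrophages (-2.21 ± 0.31). Spp1 (osteopontin) and Gpnmb, both high in phagocytes that clear debris, were lower in both, Spp1 with log2 fold changes of -1.68 ± 0.29 and -6.09 ± 0.44 and Gpnmb with log2 fold changes of -2.42 ± 0.56 and -6.61 ± 0.56. Of the 10 genes 2 were higher and 3 lower than in monocytes, beside 12.5% and 17.4% of all genes. Against macrophages 1 was higher (Siglecf), under the 14.9% of all genes, and 7 were lower, beside 22.9%. Against monocytes the filter fixed, at least in part, the direction of 1 of the 2 higher (Siglecf) and 1 of the 3 lower genes (Gpnmb). Against macrophages it did so for Siglecf and for 2 of the 7 lower genes (Gpnmb and Hmox1). The protease Ctsb (cathepsin B) was called lower than in monocytes (-1.18 ± 0.25), a call lost in 3 of 22 alternatives, and its inhibitor Cstb lower than in macrophages (-1.23 ± 0.29), a call lost in 2 of 22. Fth1, ferritin heavy chain, was uneven among mice, at 5664, 13052, 10522 and 6646 CPM in saline 1 to 4 and 7399, 26651, 12367 and 11598 CPM in ancrod 1 to 4, with ancrod 2 the highest.

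A glucose transporter had a higher level in neutrophils, whereas most glycolytic enzymes were not called. Slc2a3, the high-affinity glucose transporter GLUT3, was at 208, 252, 213 and 299 CPM in saline 1 to 4 and 208, 114, 134 and 255 CPM in ancrod 1 to 4 with log2 fold changes of 4.30 ± 0.21 and 6.01 ± 0.29 over the 11.8 ± 4.65 CPM of monocytes and the 2.90 ± 1.41 CPM of macrophages, both directions fixed by the filter. The enzymes Ldha, Pgk1 and Pkm, and the oxygen-regulated factor Hif1a, at 239 ± 81.0 CPM, were not called in either comparison. Hk3, a hexokinase of blood cells, was at 1.84 ± 0.25 against monocytes, the direction again fixed by the filter, and not called against macrophages. Of 13 hypoxia and glycolysis genes 5 were higher than in monocytes and 4 than in macrophages, and 0 were lower in either comparison (Ndrg1, a gene induced by low oxygen, at 1.06 ± 0.23 against macrophages, was lost in 7 of 21 alternatives). The filter fixed the direction of 4 of the 5 and 1 of the 4, and 12.5% and 14.9% of all genes were higher. Among 9 survival and death genes 5 were higher in each comparison and 0 lower, with the direction of 1 of the 5 against monocytes fixed by the filter. Among the higher were Bcl2l11, the death-promoting BIM, against macrophages (1.08 ± 0.19, lost in 4 of 22 alternatives) and Bcl2a1b against monocytes (1.27 ± 0.23, lost in 1 of 22). Mcl1, which keeps neutrophils alive, was at 1975, 1841, 1444 and 1698 CPM in saline 1 to 4 and 1313, 1836, 1913 and 1971 CPM in ancrod 1 to 4, with 1.20 ± 0.16 (adjusted p = 8.41e-06) and 1.32 ± 0.17 (adjusted p = 3.33e-06). The survival paralogs Bcl2a1a, Bcl2a1b and Bcl2a1d share 69.0 to 79.5% of their stretches of 50 bases with another gene, so their separate counts are uncertain.

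Genes of coagulation and fibrinolysis, the system that ancrod acts on in plasma, were mostly lower than in monocytes where they were called, with F5 the exception. F5, coagulation factor V, was at 259.8, 175, 202 and 89.6 CPM in saline 1 to 4 and 108, 37.6, 138 and 228 CPM in ancrod 1 to 4, and was higher than in monocytes (2.21 ± 0.22, adjusted p = 4.51e-07) and, with the direction fixed by the filter, at 4.83 ± 0.28 against macrophages. Its lowest value was in ancrod 2, and the control and fibrinogen-depleted mice overlapped. Thbs1 (thrombospondin 1), F13a1 (the factor XIII subunit that crosslinks fibrin), Plau (urokinase) and S100a10, which binds plasminogen activator, were lower in both comparisons, F13a1 at 33.9 ± 34.9 CPM in neutrophils against 267 ± 78.5 CPM in monocytes and 566 ± 73.8 CPM in macrophages. Plaur, the urokinase receptor, was at 366 to 516 CPM over the 8 mice and under 2-fold from both gates. In all 1 of 8 tested genes was higher than in monocytes, the share of all genes (12.5%), and 4 were lower, beside 17.4% of all genes. Against macrophages 4 of 10 were higher and 5 lower, beside 14.9% and 22.9%. The filter fixed the direction of 3 of the 4 lower genes against monocytes, and of 2 of the 4 higher and 4 of the 5 lower genes against macrophages. Of 7 pattern receptors 3 were higher than in monocytes and 4 than in macrophages, among them Clec4e (Mincle, a receptor for damaged cells) at 925 ± 256 CPM, with 2.65 ± 0.23 (adjusted p = 1.42e-07) and 4.03 ± 0.20 (adjusted p = 8.04e-12).

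**Figure D4:**
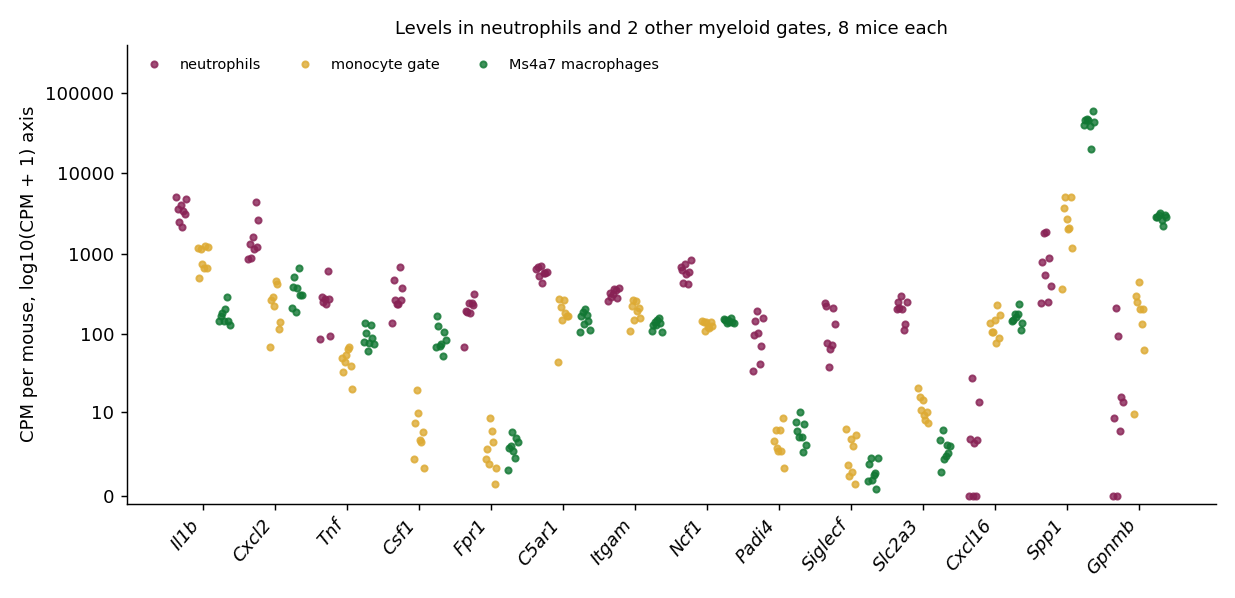
Levels of the genes named on the axis in neutrophils (purple), the monocyte gate (yellow) and Ms4a7 macrophages (green), 1 point per mouse (8 mice per gate), in CPM on a log10(CPM + 1) axis. Il1b was at 2183 to 5145 CPM in neutrophils against 502 to 1246 CPM and 132 to 287 CPM in the other gates, whereas Spp1 and Gpnmb were highest in macrophages.

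Of the genes lower in neutrophils than in the monocyte gate, which also held dendritic genes, those of antigen presentation led. Among genes with a mean of at least 100 CPM in one gate, the 10 with the most negative log2 fold change against monocytes included the class II genes H2-Aa (-8.10 ± 0.34), H2-Eb1 (-7.81 ± 0.41), H2-Ab1 (-7.53 ± 0.45) and their chaperone Cd74 (-6.76 ± 0.51). H2-Aa was at 8.74 ± 7.93 CPM in neutrophils and 3093 ± 1268 CPM in the monocyte gate (TMM-scaled, SD over 8 mice). Il7r and Klrd1 in the same 10 are lymphoid genes, with 2 and 5 UMIs in all neutrophils. The class II genes, Il7r and Klrd1 were at 0 CPM in the neutrophils of saline 1. They passed the filter on low counts with the libraries of the monocyte gate, which fixed their direction at least in part. Against macrophages Atp6v0d2, a subunit of the vacuolar proton pump, came first (-7.85 ± 0.45), the 10 also held Pf4, Gpnmb, Spp1, Gal (galanin) and the chemokine gene Ccl7, with 3 UMIs in neutrophils and 5967 in macrophages, and H2-Aa (-6.04 ± 0.29) and H2-Eb1 came last of the 10. The fatty acid receptor Cd36 and the membrane protein Emp1 were among the 10 in both comparisons, at 4 and 8 UMIs in all neutrophils. For both genes, as for Atp6v0d2 and Ccl7, the filter fixed the direction. At the other end the 10 most raised against both gates shared Stfa2l1, Cstdc4, Asprv1, Ltf, Mrgpra2b and Il36g, which passed the filter through the neutrophil libraries. Ltf reached the 100 CPM needed through the granule-high members, without which it was at 22.5 to 79.6 CPM. Mrgpra2b, a Mas-related receptor, shares 87.8% of its stretches of 50 bases with Mrgpra2a, so its 298 UMIs may belong to either gene.

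No gene was called between the neutrophils of fibrinogen-depleted and control mice. With counts summed per mouse over neutrophils, 0 of 3810 genes passed an adjusted p of 0.05 by edgeR's quasi-likelihood test (0% called), 109 (2.86%) had an unadjusted p under 0.05, and DESeq2 called 0 with 73 genes under an unadjusted 0.05. For 70 genes (1.84%) the 4 mice of one group all lay above the 4 of the other. Random labels of the mice would separate the groups in this way for a fraction of 0.0286 of genes, so the 70 are not an excess. The sums rested on 12 to 143 cells and 57730 to 1164007 UMIs per mouse, so a smaller difference between the groups may have gone undetected at this depth.

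The 5 genes with the lowest unadjusted p in each direction are given as values, in TMM-scaled CPM. Rtp4, an interferon-induced chaperone of membrane receptors, was at 75.6, 122, 153 and 149 CPM in saline 1 to 4 and 30.6, 49.5, 65.4 and 45.4 CPM in ancrod 1 to 4 (log2 fold change of ancrod over saline -1.51 ± 0.33, unadjusted p = 0.000475 by edgeR, adjusted p = 1.000). Every fibrinogen-depleted mouse had less Rtp4 than every control mouse. Oasl2, another interferon-response gene, was at 94.5, 143, 199.9 and 229 CPM in saline 1 to 4 and 70.6, 81.5, 28.6 and 90.8 CPM in ancrod 1 to 4 (-1.39 ± 0.35), again without overlap, and Epsti1, induced by interferon too, at 208, 223, 162 and 133 CPM in saline 1 to 4 and 106, 64.0, 49.0 and 136 CPM in ancrod 1 to 4 (-1.10 ± 0.33), with ancrod 4 above saline 4. The interferon-response list, Oasl2 included, had a median of -0.46 over 7 genes, 6 negative and 1 positive, beside a median of 0.02 over all 3810 genes, and none of them was called. The summed level of the list overlapped between the groups, at 2165, 4064, 6215 and 5388 CPM in saline 1 to 4 and 4191, 3469.7, 3607 and 5001 CPM in ancrod 1 to 4, with control mice both lowest and highest. Cyth1, a guanine exchange factor that regulates integrins, was at 454, 404, 437 and 330.5 CPM in saline 1 to 4 and 253, 202, 204 and 227 CPM in ancrod 1 to 4 (-0.86 ± 0.22), without overlap. Cstdc4 was at 529, 605, 609 and 2196 CPM in saline 1 to 4 and 249, 547, 221 and 409 CPM in ancrod 1 to 4 (-1.49 ± 0.47), where saline 4 stood far above the other mice.

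Among those with higher values in fibrinogen-depleted mice, Cd69, an early activation antigen, was at 37.8, 33.6, 25.0 and 53.3 CPM in saline 1 to 4 and 93.8, 58.2, 102 and 90.8 CPM in ancrod 1 to 4 (1.22 ± 0.36). Sppl3, an intramembrane protease, was at 94.5, 79.9, 106 and 58.6 CPM in saline 1 to 4 and 136, 188, 151 and 166 CPM in ancrod 1 to 4 (0.91 ± 0.28). For both genes the groups did not overlap, as for Thoc7 (0.93 ± 0.32), whereas they did for Abcd2 (1.06 ± 0.36). Gfap, an astrocyte gene, was at 75.6, 12.6, 9.37 and 26.7 CPM in saline 1 to 4 and 74.8, 224, 106 and 30.3 CPM in ancrod 1 to 4 (2.55 ± 0.63). At least 5 cp10k of the glial genes was found in 33.3% of the members of saline 1, 19.6% of ancrod 2, 12% of ancrod 3 and 0 to 6.45% of the other 5 mice. With free RNA subtracted, or without the members that held such transcripts (which left saline 1 out of the fit), Gfap no longer passed the filter on low counts. None of the 10 passed the adjustment, and their adjusted p over the alternatives ranged from 0.0146 (Gfap, with no filter on low counts) to 1.000.

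By list, the median log2 fold changes of fibrinogen-depleted over control mice were 0.21 for specific granule genes (7 of 7 positive), -0.10 for gelatinase granule genes, 0.40 for cytokines and chemokines, 0.36 for hypoxia and glycolysis, 0.32 for tissue neutrophil genes, -0.01 for recruitment receptors and 0.15 for adhesion genes, with 0 genes called in any of them. Of the specific granule genes, Camp, Ltf, Ngp, Chil3 and Lcn2 were highest in ancrod 1, which held 23 granule-high members. Among the cytokines, ancrod 2 was the highest of the 8 mice for Cxcl2, Tnf, Csf1, Ccl3 and Ccl4. What part these members or these 2 mice had in the list medians was not tested. The summed level of the 10 coagulation and fibrinolysis genes was 1923, 2391, 1781 and 1779 CPM in saline 1 to 4 and 1501, 1698, 1685 and 1636 CPM in ancrod 1 to 4. It was lower in every fibrinogen-depleted mouse than in every control mouse, a pattern noticed after the values of 16 lists had been seen and given with no test, and it was the only 1 of those 16 without overlap. Its largest members were Anxa2 (annexin A2, a plasminogen-binding protein) and Plaur, with log2 fold changes of -0.22 ± 0.29 and -0.18 ± 0.23, and none of the list's genes was called.

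**Figure D5:**
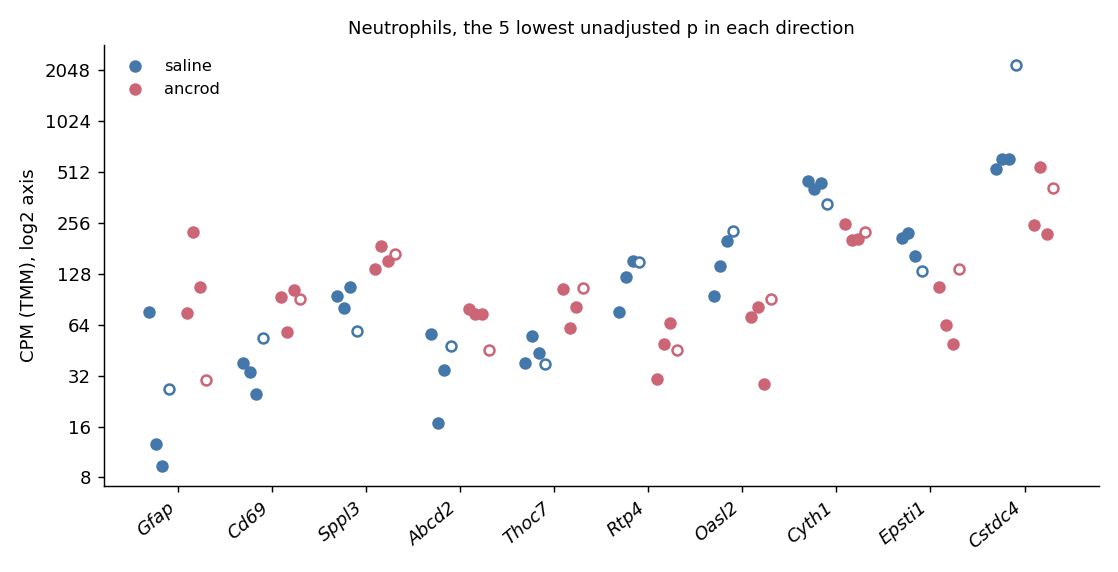
The 10 genes with the lowest unadjusted p in neutrophils, 5 in each direction, as TMM-scaled CPM on a log2 axis, 1 point per mouse in replicate order (blue for control and red for fibrinogen-depleted mice, filled for batch 1 and open for batch 2). Cd69, Sppl3, Thoc7, Rtp4, Oasl2 and Cyth1 show groups that do not overlap, as did 70 (1.84%) of all genes tested, and none of the 10 passed the adjustment over 3810 genes.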

How the data were processed

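Cells of the injury site were captured with 10x Genomics 3' v3.1 chemistry, and the deposited matrices hold raw counts of UMIs per gene and droplet, which the authors made with Cell Ranger 7.1.0 (STAR, mouse build mm39) without normalization and, as the values show, without removing empty droplets. Gene coordinates were taken from GENCODE vM39 on GRCm39. The members and gene lists were chosen with earlier results of these data known.

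Droplets were filtered and gated as described in the report, and the counts were summed per mouse. Genes were tested with edgeR 4.0.16 in R 4.3.3 (quasi-likelihood test, TMM scaling, filterByExpr, Benjamini-Hochberg adjustment over all genes tested): fibrinogen-depleted against control mice without covariates, and neutrophils against the monocyte or macrophage gate with mouse as a block, leaving out genes used by either of the 2 gates compared. Adjusted p-values in the report are from edgeR. Standard errors of log2 fold changes were derived from the test, as the absolute log2 fold change divided by the square root of its F statistic. Shares were compared with two-sided exact permutation tests (scipy 1.17.1). With 1 library per mouse, p-values measure the spread between mice, and intervals cover counting error only. CPM values were computed here, plain for single genes and TMM-scaled where stated. Thinning drew 1000 UMIs per cell without replacement.

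Named were the genes of the lists, the 10 genes per direction with the largest called fold change and a mean of at least 100 CPM in one gate and, where no gene was called, the 5 per direction with the lowest unadjusted p. Other genes named were chosen after their values were seen. Stretches of 50 bases shared with other genes were counted in the annotated transcripts. The alternatives were other UMI, mitochondrial, S100a8 and marker limits, thinned libraries, no filter on low counts, DESeq2 1.42.0, batch or replicate number as a term, subtraction of free RNA, and each mouse left out. The tests were checked on simulated counts. The values of some genes are not reported here.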

Additional observations from a re-analysis of the deposited data

Results flagged for a closer look

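In 4 of 36 groups of 4 mice that were checked, the highest or lowest mouse stood apart from the other 3 by more than Dixon's critical share of the group's range, a limit that chance passes in about 1 in 20 groups. Among the fibrinogen-depleted mice, ancrod 1 had 17.2% granule-high members against 2.80%, 2.00% and 0% in the other 3. The neutrophils of ancrod 3 had a median of 1.68% mitochondrial UMIs, against 0.911%, 0.979% and 0.899% in ancrod 1, 2 and 4. Abcd2, a peroxisomal transporter of fatty acids, was lowest at 45.4 TMM-scaled CPM in ancrod 4, which rested on 16 cells, against 79.0, 74.2 and 73.6 CPM in ancrod 1 to 3. Among the control mice, Cstdc4 reached 2196 TMM-scaled CPM in saline 4 against 529 to 609 CPM in the other 3.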

How the results depend on the processing

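The share of neutrophils kept its direction in 24 of 25 alternatives. In the 14 whose exact permutation test could have passed 0.05 it gave p = 0.2 to 0.343, and the other 11 (each mouse left out, 1 batch alone, sign flips) could not pass. The difference was 0.452 to 1.03 percentage points with each mouse left out, and -0.200 in batch 2 alone. Between fibrinogen-depleted and control mice 0 genes were called in 23 of 24 alternatives, and 9 of 14104 (7 higher, 2 lower) with no filter on low counts, Gfap among them (2.55, adjusted p = 0.0146). Against monocytes 3563 of 16144 genes were called with no filter and 551 of 1452 with each cell thinned to 1000 UMIs, and against macrophages 1210 of 2580 with thinned cells, in each case with other numbers of genes tested. With each mouse left out the counts were 1994 to 2398 and 3362 to 4040. Chil3 against macrophages turned from 1.53 to -0.19 without the granule-high members, and no other named gene changed sign. Same-numbered mice did not deviate together (correlations across genes of -0.17, 0.02, -0.11 and 0.13, from 1 to 4), so the numbers were not taken as pairs: with a replicate block 0 genes were called between treatments (105 at an unadjusted p under 0.05), sign flips of the 4 differences in share gave an exact permutation p of 0.5 (smallest possible 0.125), and without the mouse block 2161 and 3620 genes were called against the 2 gates. Alternatives that left out granule-high members, members with transcripts of other cells or members over 20000 UMIs, or thinned each cell, were chosen after seeing the data. The 500 UMI minimum and the 30% mitochondrial limit were run for the share only. Depth limits the treatment comparison most in saline 1 and ancrod 4, with 12 and 16 cells.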

Other observations

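Ligands that draw neutrophils in were found in other cells of the tissue taken, given here with no test as means ± SD over 8 mice of the cells of each gate, or mouse by mouse. Cxcl1, a ligand of Cxcr2, was at 522 ± 214 CPM in fibroblasts and 118 ± 57.6 CPM in endothelial cells, against 31.2 ± 38.8 CPM in the neutrophils. Cxcl2, another ligand of Cxcr2, was in contrast at 1772 ± 1220.5 CPM in neutrophils and at 372 ± 156 CPM in Ms4a7 macrophages, 344 ± 126 CPM in microglia and 133 ± 56.5 CPM in fibroblasts. Cxcl12, the ligand of Cxcr4, was at 1470.0 ± 241 CPM in endothelial cells and 618 ± 134 CPM in fibroblasts. Cxcl5, a further ligand of Cxcr2, was at 8.87, 10.5, 15.9 and 13.8 CPM in saline 1 to 4 and 19.8, 58.5, 19.6 and 36.0 CPM in ancrod 1 to 4 in astrocytes, without overlap between the groups, and at 0.851, 6.59, 0.847 and 4.04 CPM in saline 1 to 4 and 64.6, 135, 17.7 and 5.22 CPM in ancrod 1 to 4 in fibroblasts, where ancrod 4 lay below saline 2. This was noticed after the values had been seen, as 1 of 2 pairs without overlap (the other was Cxcl3 in astrocytes, with 20 UMIs in all) among 70 pairs of 14 genes and 5 cell gates, and it was not tested. Csf3, the growth factor that binds Csf3r, was nearly undetected, with its highest mean at 2.62 ± 1.96 CPM in endothelial cells.

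Endothelial adhesion molecules on which neutrophils roll and stick were detected too. Selp (P-selectin) was at 66.1 ± 40.7 CPM and Sele (E-selectin) at 39.3 ± 17.1 CPM in endothelial cells. Icam1, a ligand of Mac-1 and LFA-1, was at 409.8 ± 128 CPM in endothelial cells, 688 ± 68.3 CPM in microglia and 191 ± 75.3 CPM in the neutrophils themselves. Lcn2 was at 2504 ± 1635 CPM in neutrophils against 203 ± 207 CPM in astrocytes and 177 ± 89.5 CPM in endothelial cells.

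With no filter on low counts, 9 genes were called between the neutrophils of fibrinogen-depleted and control mice by edgeR, and most of their UMIs came from 1 or 2 mice. Top2a, a gene of dividing cells, had 2, 0, 0 and 3 UMIs in saline 1 to 4 and 242, 56, 0 and 0 UMIs in ancrod 1 to 4, and Nusap1, H1f5 and Ube2c, also of dividing cells, had their highest counts in ancrod 1, the mouse with 12 of the 14 dividing granule-high members. Cxcl3, a chemokine that binds Cxcr2, had 0, 2, 1 and 5 UMIs in saline 1 to 4 and 30, 278, 17 and 0 UMIs in ancrod 1 to 4. Of the stefin-like genes called lower, Csta2 had 1, 3, 5 and 50 UMIs in saline 1 to 4 and 6, 3, 0 and 0 UMIs in ancrod 1 to 4 and Cstdc5 had 0, 23, 26 and 46 UMIs in saline 1 to 4 and 9, 15, 0 and 0 UMIs in ancrod 1 to 4. Igfbp2, a carrier of insulin-like growth factors, had 1, 1, 0 and 0 UMIs in saline 1 to 4 and 18, 5, 61 and 0 UMIs in ancrod 1 to 4. Because the libraries differ in the number of neutrophils, these are counts and not levels.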
